A study of Mus musculus with 3 samples.

Results

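The tight junction genes measured here were the 42 protein-coding genes, of 39179 genes in the table, whose symbols are those of claudins, zonula occludens proteins, MARVEL proteins, junctional adhesion proteins, cingulins and polarity proteins of the junction. They were selected by symbol, with a rule that uses no measured value. The members and the gene lists below were nevertheless chosen with earlier results of these data known. RNA came from differentiated mouse embryonic stem cells of the line Contactin2:eGFP transduced with lentiviral aMHC:mCherry, in which eGFP reports Cntn2, a marker of Purkinje cells of the cardiac conduction system, and mCherry is driven by the promoter of the cardiac alpha myosin heavy chain. All cells had been treated with sodium nitroprusside, a nitric oxide donor, on day 4 of differentiation and were sorted after 25 days. The 3 populations were eGFP-positive cells with dim mCherry (GFP), mCherry-positive cells (MHC) and cells negative for both reporters (NEG), with 1 library each. All 3 populations thus share the line, the virus and the drug, and no untreated cells enter any comparison. A reporter gate collects whatever cells carry its signal. Each population is represented by 1 library, so the differences are without replication and are given without p-values.

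Tight junctions seal the space between neighbouring epithelial or endothelial cells and separate the apical from the basolateral membrane. Claudins form the strands and set which ions and solutes pass, occludin and the other MARVEL proteins join the strands, and zonula occludens and cingulin proteins tie them to actin. The Par and Crumbs polarity complexes position the junction. Heart muscle cells are joined mainly by intercalated discs, where the coxsackie and adenovirus receptor CXADR and ZO-1 are known to lie, whereas the mesothelium that covers the heart is a simple epithelium with tight junctions.

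All values are size-factor-normalised read counts, and folds are ratios of them. A gene is called higher or lower when the populations differ by at least 2-fold on the log2(value + 1) scale and the larger value reaches 20, which is a rule of size. Intervals of folds are exact 95% intervals from recovered reads and cover counting error only. The libraries held 52109065 reads in GFP, against 52826956 in MHC and 47289405 in NEG, as sums over genes. In the check of the sort, Cntn2 measured 10045 in GFP, against 228 in MHC and 204 in NEG, and Myh6 measured 4694 in GFP, against 186924 in MHC and 3843 in NEG. All 7 heart muscle markers were lower in GFP than in MHC (their summed value was 12839 in GFP, against 298069 in MHC and 9142 in NEG), and against NEG 1 of the 7 was higher in GFP, 1 lower and 5 within 2-fold. The series calls its product Purkinje fiber-like cells; the GFP library carried the Cntn2 signal of that label but not a high level of these heart muscle markers. All 10 epicardial and mesothelial markers were higher in GFP than in both other populations, with summed values of 179476 in GFP, against 7051 in MHC and 7276 in NEG. Over all genes reaching a value of 20, 15.6% were higher and 16.4% lower in GFP than in MHC. Against NEG these shares were 14.1% and 15.0%.

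Promoter windows of 7 members are shown first, chosen after their values were seen from the 11 windows of members at least 2-fold higher in GFP than in both other populations, because these genes were high in the same library and because transcription factors that bind the E-box CAGGTG are described further down. Each window runs from 250 bases before to 50 bases after a RefSeq gene start on GRCm38.p6, in the gene's own direction, and lies at the coordinates given. Capitals mark every match, on both strands, to 2 motifs. The E-box, bound by Snail and Zeb factors, has the letters CAGGTG. The reverse complement of this motif was searched as well and reads CACCTG. The GC box, bound by Sp factors, is spelled GGGCGG. On the opposite strand the same motif reads CCGCCC. The Cldn15 window (chr5:136967619-136967918, plus strand) belongs to a start 1253 bases inside the gene as the table draws it. The others are Cldn3 (chr5:134985964-134986263, plus), Ocln (chr13:100552669-100552968, minus), F11r (chr1:171437311-171437610, plus), Cgnl1 (chr9:71771553-71771852, minus), Cgn (chr3:94786433-94786732, minus) and Pard6b (chr2:168080754-168081053, plus).
Cldn15: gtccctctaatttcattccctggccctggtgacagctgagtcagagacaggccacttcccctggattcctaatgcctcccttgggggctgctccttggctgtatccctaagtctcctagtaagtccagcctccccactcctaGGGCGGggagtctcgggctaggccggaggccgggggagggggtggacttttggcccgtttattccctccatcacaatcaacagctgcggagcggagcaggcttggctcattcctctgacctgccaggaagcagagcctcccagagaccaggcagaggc
Cldn3: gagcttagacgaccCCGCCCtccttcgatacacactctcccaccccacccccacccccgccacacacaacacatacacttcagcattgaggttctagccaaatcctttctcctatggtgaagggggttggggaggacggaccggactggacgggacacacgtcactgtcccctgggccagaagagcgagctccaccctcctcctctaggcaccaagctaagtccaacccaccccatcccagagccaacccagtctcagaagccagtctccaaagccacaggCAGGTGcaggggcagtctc
Ocln: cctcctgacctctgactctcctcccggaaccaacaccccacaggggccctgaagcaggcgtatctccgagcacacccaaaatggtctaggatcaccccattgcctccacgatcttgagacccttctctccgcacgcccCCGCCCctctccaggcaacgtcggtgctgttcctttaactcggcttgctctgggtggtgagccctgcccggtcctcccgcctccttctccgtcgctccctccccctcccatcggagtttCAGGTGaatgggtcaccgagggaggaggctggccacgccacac
F11r: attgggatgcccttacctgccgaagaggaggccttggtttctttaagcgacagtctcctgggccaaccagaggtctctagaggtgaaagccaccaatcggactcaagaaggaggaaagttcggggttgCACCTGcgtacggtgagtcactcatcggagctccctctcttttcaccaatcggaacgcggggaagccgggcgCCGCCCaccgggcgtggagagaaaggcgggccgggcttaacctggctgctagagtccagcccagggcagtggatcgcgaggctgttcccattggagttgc
Cgnl1: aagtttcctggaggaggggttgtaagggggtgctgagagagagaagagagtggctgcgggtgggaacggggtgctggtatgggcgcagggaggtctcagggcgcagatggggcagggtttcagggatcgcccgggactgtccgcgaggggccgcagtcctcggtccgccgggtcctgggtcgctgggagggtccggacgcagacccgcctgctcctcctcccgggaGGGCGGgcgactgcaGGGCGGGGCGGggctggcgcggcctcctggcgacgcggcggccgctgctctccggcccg
Cgn: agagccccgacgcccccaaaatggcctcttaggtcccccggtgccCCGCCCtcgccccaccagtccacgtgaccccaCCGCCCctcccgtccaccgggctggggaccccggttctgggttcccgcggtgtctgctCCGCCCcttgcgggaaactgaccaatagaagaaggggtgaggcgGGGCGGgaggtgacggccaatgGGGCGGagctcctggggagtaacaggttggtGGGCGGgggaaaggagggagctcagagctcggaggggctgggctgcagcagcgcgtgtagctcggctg
Pard6b: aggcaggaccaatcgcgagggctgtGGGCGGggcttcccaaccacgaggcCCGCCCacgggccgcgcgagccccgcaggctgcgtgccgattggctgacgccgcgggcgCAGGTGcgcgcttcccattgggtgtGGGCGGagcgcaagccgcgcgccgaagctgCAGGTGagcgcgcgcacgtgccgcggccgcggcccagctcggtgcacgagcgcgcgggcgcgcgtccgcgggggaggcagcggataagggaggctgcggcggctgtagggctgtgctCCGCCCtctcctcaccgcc

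Among these windows, Pard6b held 2 E-boxes, Cldn3, Ocln and F11r held 1 each, and no match to those letters lay in the windows of Cldn15, Cgnl1 and Cgn. Cgn held 6 GC boxes, Pard6b 4 and Cgnl1 3, of which 2 in Cgnl1 share 1 base. Promoter windows were found for 31 of the 42 members. Among the members without one were Cxadr, Marveld3, Esam and Mpp5, which were also higher in GFP than in both other populations. The 20 windows of members not higher in both comparisons include those of many claudins too low to compare. They also include that of Tjp3, which was called higher in GFP than in NEG. An E-box was present in 6 of the 11 windows of members higher in GFP than in both other populations and in 3 of the 20 other windows, against 20.2% of all 32851 mouse windows. A GC box was present in 9 of those 11 and in 9 of the other 20, against 35.7% of all windows. The share of G and C bases ran from 36.0% in Cldn10 to 77.0% in Pard6b among the 11. Among the other 20 it ran from 41.0% in Cldn17 to 78.7% in Pard3. The part of base composition in these motif counts was not tested. The TEAD motif GGAATG, searched on both strands and not marked above, was present in 3 of the 11 and 5 of the 20, against 14.7%. No pair of marked motifs of different kinds overlapped in the windows shown. The 4 windows not printed are those of Cldn10 and Cldn25, with no match to the E-box or GC box, Marveld2, with 1 of each, and Crb3, with 4 E-boxes and 3 GC boxes, which lies 3096 bases from the table's start of the gene. A match is a run of letters and not a measured binding site.

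A part of the tight junction genes was higher in the Cntn2:eGFP-positive cells, and many claudins were too low to compare. The share that was lower was near that of all genes, though every lower member was a claudin. Against MHC, 16 of the 42 members were higher in GFP, 3 were lower, 6 lay within 2-fold and 17 had a value under 20 in both libraries. Of the 25 members reaching a value of 20 in either population, 64.0% were higher and 12.0% lower. Over all 20879 genes reaching a value of 20 in either population, 15.6% were higher and 16.4% were lower in that comparison. Against NEG, 17 members were higher in GFP, 3 were lower, 7 lay within 2-fold and 15 were under 20 in both. Of the 27 members reaching a value of 20 in GFP or NEG, 63.0% were higher and 11.1% lower. The shares over all 20814 such genes were 14.1% higher and 15.0% lower. Among the claudins alone, 50.0% of the 8 reaching 20 in GFP or MHC were higher and 37.5% lower. Of the 10 claudins reaching 20 in GFP or NEG, 40.0% were higher and 30.0% lower. Both comparisons use the same GFP library, so they are not independent. In bulk RNA, more cells of a type and more RNA per cell cannot be told apart, and the part that mesothelial or epithelial cells have in these levels was not tested. The median log2 ratio of the 28 members with a mean of 10 or more was 1.17 for GFP over MHC, where the median of all 22235 such genes was 0.00, and 1.57 for GFP over NEG, where it was 0.01. The 28 are not all members, since 14 claudins lay under that mean. Over all 42 members the medians were 1.06 for GFP over MHC and 0.94 for GFP over NEG.

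**Figure D1:**
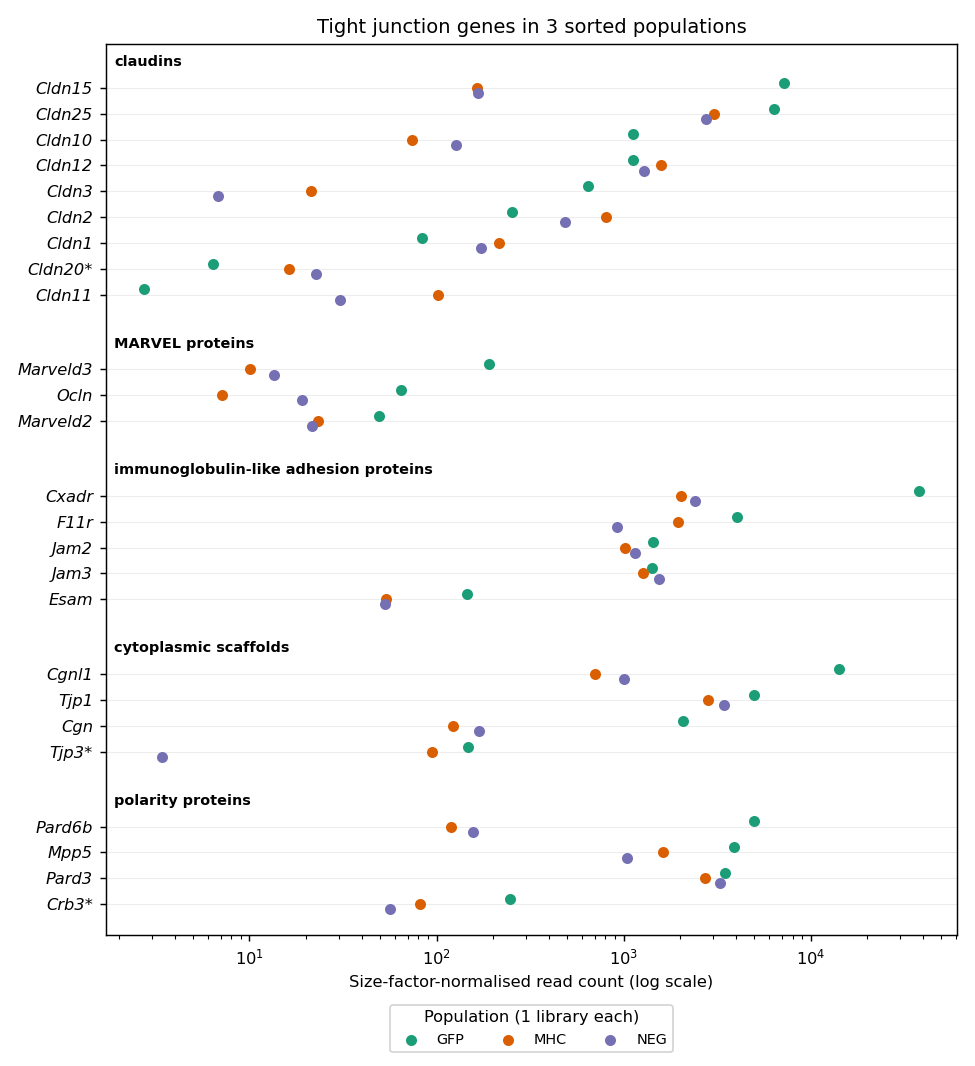
Size-factor-normalised read counts (log axis) of 25 tight junction genes with a value of 100 or more in any library or a 2-fold difference of GFP from MHC or NEG, grouped by role, with 1 point per population (1 library each). An asterisk marks genes that share their position with another gene holding at least 25% of their reads. GFP points lie far to the right for Cldn15 (7227), Cxadr (37815), Cgnl1 (14161) and Pard6b (4986), while MHC and NEG points lie close together for most genes.

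Among the claudins, a small set was much higher in GFP. Cldn15 (ENSMUSG00000001739, chr5:136966616-136975858, mm10), which forms cation-permeable pores in the intestine, measured 7227 in GFP, against 165 in MHC and 167 in NEG. MHC and NEG were thus close to each other and GFP stood far above both. The fold was 43.8 (95% interval 37.5 to 51.4) over MHC and 43.2 (95% interval 36.7 to 51.2) over NEG. Cldn3 (ENSMUSG00000070473, chr5:134986214-134987476), a sealing claudin of many epithelia, measured 644 in GFP, against 21.3 in MHC and 6.78 in NEG, the lowest resting on 6 reads. It was 30.3-fold higher in GFP than in MHC (95% interval 19.6 to 49.2) and 94.9-fold (95% interval 43.4 to 260) higher than in NEG. Cldn10 (ENSMUSG00000022132, chr14:118787908-118875489), whose alternative first exons give cation- or anion-selective proteins that the table does not separate, measured 1126 in GFP, against 73.9 in MHC and 127 in NEG. It was 15.2-fold higher in GFP than in MHC (95% interval 12.0 to 19.6) and 8.90-fold (95% interval 7.33 to 10.9) higher than in NEG.

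Other claudins were lower in GFP or did not differ by 2-fold. Cldn11, the claudin of myelin and of the Sertoli cell barrier, measured 2.74 in GFP (3 reads), 102 in MHC and 30.5 in NEG. Among members reaching a value of 20 in GFP or MHC it was the lowest relative to MHC, by 37.3-fold (95% interval 12.4 to 184), and was 11.1-fold (95% interval 3.42 to 57.3) lower than in NEG. Cldn2, a cation- and water-permeable claudin of leaky epithelia, measured 252 in GFP, against 809 in MHC and 486 in NEG. GFP was 3.21-fold (95% interval 2.79 to 3.69) below MHC and 1.93-fold (95% interval 1.65 to 2.25) below NEG, the second of these within 2-fold. Cldn1, needed for the barrier of the epidermis, measured 83.2 in GFP, against 217 in MHC and 172 in NEG. It was 2.61-fold lower in GFP than in MHC (95% interval 2.03 to 3.37) and 2.06-fold (95% interval 1.58 to 2.71) lower than in NEG. The call against NEG was lost with a pseudocount of 10, at a log2 ratio of -0.96, and with scaling to library totals, at -0.87. Cldn12, a claudin without the usual tail that binds zonula occludens proteins, measured 1123 in GFP, against 1585 in MHC and 1282 in NEG, within 2-fold throughout. Cldn20 measured 6.40 in GFP, against 16.2 in MHC and 22.6 in NEG, and it lies inside Tfb1m, so its reads are uncertain. It was called lower in GFP than in NEG, a call lost with a pseudocount of 10 at a log2 ratio of -0.99.

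The row named Cldn25 in the table carries the identifier of the gene now called Cldnd1, a distant relative with a claudin domain, and the row named Cldn26 that of Tmem114. Cldn25 was abundant in every library, with a value of 6400 in GFP, against 3025 in MHC and 2774 in NEG. It was 2.12-fold higher in GFP than in MHC (95% interval 2.03 to 2.21) and 2.31-fold (95% interval 2.20 to 2.42) higher than in NEG. Cldn26 had at most 2 reads in any library. Without both rows, 15 of 40 members were higher in GFP than in MHC and 16 of 40 higher than in NEG.

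The remaining 15 claudins were low everywhere, the highest being Cldn7 at 19.2 in GFP, against 14.2 in MHC and 30.5 in NEG. Cldn5, the main claudin of endothelium, had 0 reads in GFP and in MHC and 4 in NEG, and a count of 0 allows up to 3 reads, which is a value of 2.74 in GFP and 3.04 in MHC. Cldn4, a sealing claudin often found with Cldn3, measured 12.8 in GFP, against 4.05 in MHC and 3.39 in NEG. The other low claudins were Cldn6, Cldn8, Cldn9, Cldn13, Cldn14, Cldn16, Cldn17, Cldn18, Cldn19, Cldn22, Cldn23 and Cldn24, with no value above 17.4. Cldn6, Cldn9 and Cldn18, known from embryonic and lung epithelia or the inner ear, had at most 2 reads in any library. Cldn18 and Cldn19 also overlap antisense genes and are uncertain.

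The makeup of claudin RNA differed between the populations. Per kb of annotated exon, the summed level of the 23 claudins, without the rows named Cldn25 and Cldn26, was 4772 in GFP, against 894 in MHC and 718 in NEG. Cldn15 held 71.3% of that sum in GFP, 8.70% in MHC and 11% in NEG. Cldn12 held 5.57% in GFP, against 41.9% in MHC and 42.2% in NEG, and Cldn2 held 1.59% in GFP, against 27.2% in MHC and 20.3% in NEG. Cldn3 came second in GFP with 10.7%, against 1.89% in MHC and 0.749% in NEG. The order within GFP depends on the length used: per kb of the whole gene span, over which the table's reads appear to have been counted, Cldn15 held 52.2% and Cldn3, a gene of a single exon, 34.0%. Cldn15 led in GFP and Cldn12 in MHC and NEG on both scales.

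**Figure D2:**
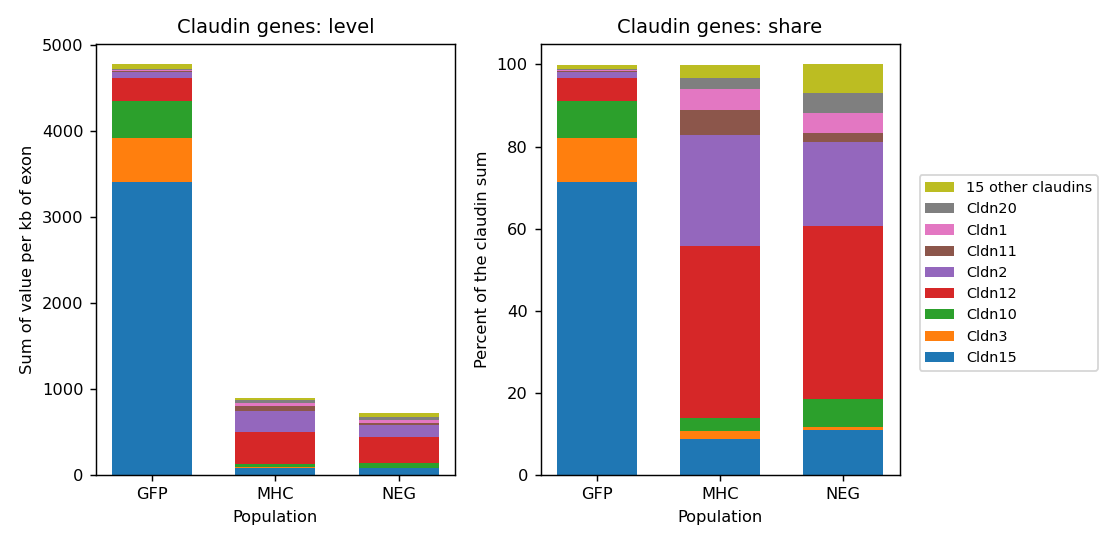
Claudin RNA by population (1 library each), as summed value per kb of exon (left) and as percent of that sum (right), for 23 claudins with 8 shown singly and the other 15 combined. The GFP bar is mostly Cldn15 (71.3%), while Cldn12 and Cldn2 make up most of the MHC bar (41.9% and 27.2%) and of the NEG bar (42.2% and 20.3%).

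Some neighbouring claudin genes differed in level and others were low together. On chromosome 5, Cldn13, Cldn4 and Cldn3 lie in a row with gaps of 29.6 and 39.3 kb. In GFP they had values of 0, 12.8 and 644 in that order, in MHC 7.09, 4.05 and 21.3, and in NEG 3.39, 3.39 and 6.78, so that of these only Cldn3 reached 20. On chromosome 16, Cldn1 lies 91.3 kb from Cldn16, and Cldn16 had 2 reads in GFP and 0 in MHC and NEG while Cldn1 had 91 reads in GFP, against 214 in MHC and 152 in NEG. In the 3 other claudin pairs within 100 kb both genes were low in every library. Cldn24 and Cldn22, 1.7 kb apart on chromosome 8, had 7 and 19 reads in GFP, 2 and 3 in MHC, and 4 and 9 in NEG. Cldn6 and Cldn9, 0.1 kb apart on chromosome 17, had at most 2 reads each, and Cldn17 and Cldn8, 53.9 kb apart on chromosome 16, had at most 1. Ocln and Marveld2 are 43.2 kb apart on chromosome 13 and were both higher in GFP. Chromosome 16 carries 10 of the 42 members, among them Cxadr and Jam2.

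All 3 MARVEL genes were higher in GFP, though at low levels. Marveld3 measured 190 in GFP, against 10.1 in MHC and 13.6 in NEG, which is 18.8-fold (95% interval 10 to 39.7) over MHC and 14.0-fold (95% interval 7.86 to 27.6) over NEG. Ocln, the gene of occludin, measured 64.9 in GFP, against 7.09 in MHC and 19.2 in NEG. Occludin RNA was 9.15-fold higher in GFP than in MHC (95% interval 4.22 to 23.6), where it rests on 7 reads, and 3.38-fold (95% interval 1.97 to 6.12) higher than in NEG. Marveld2, the gene of tricellulin, which seals the corners where 3 cells meet, measured 49.4 in GFP, against 23.3 in MHC and 21.5 in NEG. Its folds of 2.12 (95% interval 1.28 to 3.62) over MHC and 2.3 (95% interval 1.34 to 4.11) over NEG have lower bounds under 2, and both calls were lost with a pseudocount of 10, at log2 ratios of 0.83 over MHC and 0.92 over NEG.

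The adhesion proteins with immunoglobulin domains were split between a large difference in Cxadr, smaller ones in F11r and Esam, and differences within 2-fold in Jam2 and Jam3. Cxadr (ENSMUSG00000022865, chr16:78301496-78359785), the coxsackie and adenovirus receptor, measured 37815 in GFP, against 2018 in MHC and 2402 in NEG, the highest of any member in GFP. It was 18.7-fold higher in GFP than in MHC (95% interval 17.9 to 19.6) and 15.7-fold (95% interval 15.1 to 16.5) higher than in NEG. F11r, which encodes JAM-A of epithelia, endothelia and platelets, was the one adhesion gene that was also higher in MHC than in NEG, with a value of 4055 in GFP, against 1942 in MHC and 922 in NEG. GFP exceeded MHC 2.09-fold (95% interval 1.98 to 2.20) and NEG 4.40-fold (95% interval 4.08 to 4.75), and MHC exceeded NEG 2.11-fold (95% interval 1.94 to 2.29). Jam2 measured 1434 in GFP, against 1021 in MHC and 1150 in NEG, and Jam3 measured 1423 in GFP, against 1267 in MHC and 1543 in NEG. Both lay within 2-fold in every pair.

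Esam, an adhesion protein of endothelial cells and platelets, measured 145 in GFP, against 53.7 in MHC and 53.1 in NEG. It was 2.71-fold higher in GFP than in MHC (95% interval 1.97 to 3.77) and 2.74-fold (95% interval 1.97 to 3.88) higher than in NEG. Endothelial markers went in both directions, and their part in the Esam level was not tested. Of the 11, 2 were higher and 3 lower in GFP than in MHC, and 1 was higher and 4 lower than in NEG. The higher ones were Egfl7 and Tek. Egfl7 measured 1231 in GFP, against 582 in MHC and 569 in NEG, and it overlaps Agpat2 and Gm20532 and is uncertain. Tek measured 504 in GFP, against 225 in MHC and 277 in NEG, where the second difference lay within 2-fold. Flt1, Erg and Pecam1 were lower in both comparisons, and Kdr was lower against NEG only. Erg was 17.9-fold (95% interval 11.7 to 28.6) below MHC and 39.5-fold (95% interval 26.2 to 62.8) below NEG. Kdr was 2.32-fold (95% interval 1.79 to 3.03) below NEG. The summed value of the 11 was 1917 in GFP, against 3663 in MHC and 3099 in NEG. Flt1, at 40.2 in GFP, against 2370 in MHC and 1174 in NEG, weighed heavily in that sum. Without Flt1 the sum was 1877 in GFP, above the 1292 in MHC and close to the 1924 in NEG. Most of the 1877 in GFP came from Egfl7, which is uncertain. The defining genes Pecam1 and Cdh5 had values of 15.5 and 5.48 in GFP, 34.4 and 9.12 in MHC, and 33.9 and 9.04 in NEG, and Sox17 had 0 reads in NEG. Of the 7 haematopoietic and platelet markers, Cd68 was higher in GFP (1220 in GFP, against 503 in MHC and 252 in NEG) and Itga2b lower (63.1 in GFP, against 212 in MHC and 194 in NEG), with a sum of 1326 in GFP, against 732 in MHC and 469 in NEG. Hbb-bt had 0 reads in MHC and NEG.

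Among the scaffolds beneath the strands, both cingulin genes were higher in GFP than in MHC and NEG. Cgnl1 (ENSMUSG00000032232, chr9:71626509-71771602), paracingulin, which links junctions to actin, measured 14161 in GFP, against 705 in MHC and 1007 in NEG. It was 20.1-fold higher in GFP than in MHC (95% interval 18.6 to 21.7) and 14.1-fold (95% interval 13.1 to 15.1) higher than in NEG. Its relative Cgn, cingulin, measured 2090 in GFP, against 123 in MHC and 169 in NEG, which is 17.1-fold (95% interval 14.2 to 20.7) over MHC and 12.3-fold (95% interval 10.5 to 14.7) over NEG. In each cingulin gene MHC was a little below NEG and GFP far above both.

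Of the zonula occludens genes described here, neither was at least 2-fold higher in GFP than in MHC. Tjp1, the gene of ZO-1, which is also found at adherens junctions and intercalated discs, measured 4958 in GFP, against 2821 in MHC and 3433 in NEG. It lay within 2-fold, at 1.76-fold (95% interval 1.68 to 1.84) over MHC and 1.44-fold (95% interval 1.38 to 1.51) over NEG. Tjp3, the gene of ZO-3, a scaffold of epithelia, had 161 reads in GFP, against 93 in MHC and 3 in NEG, which are values of 147, 94.2 and 3.39 in that order. It was within 2-fold between GFP and MHC and 43.4-fold higher in GFP than in NEG (95% interval 14.6 to 213). Tjp3 overlaps Apba3, whose value was 1722 in GFP, against 1712 in MHC and 1754 in NEG, and its reads are uncertain.

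Of the polarity genes, Pard6b stood out. Pard6b (ENSMUSG00000044641, chr2:168081004-168101203), a Par6 adaptor that binds atypical protein kinase C and Cdc42, measured 4986 in GFP, against 119 in MHC and 156 in NEG. It was 42.1-fold higher in GFP than in MHC (95% interval 35.0 to 51.0) and 32-fold (95% interval 27.0 to 38.2) higher than in NEG. Its partner Pard3 measured 3478 in GFP, against 2735 in MHC and 3280 in NEG, within 2-fold in every pair. Mpp5, the gene of PALS1 of the Crumbs complex, measured 3885 in GFP, against 1619 in MHC and 1046 in NEG, which is 2.40-fold (95% interval 2.27 to 2.54) over MHC and 3.71-fold (95% interval 3.46 to 3.99) over NEG. Crb3, the epithelial Crumbs protein, measured 247 in GFP, against 82.0 in MHC and 56.5 in NEG, which is 3.01-fold (95% interval 2.34 to 3.91) over MHC and 4.37-fold (95% interval 3.22 to 6.03) over NEG. Crb3 overlaps Slc25a23, whose value was 2616 in GFP, against 1533 in MHC and 1108 in NEG, so its difference is uncertain. No row of the table is named Patj. The row with that gene's identifier is named Inadl and measured 2470 in GFP, against 843 in MHC and 1218 in NEG, which is 2.93-fold (95% interval 2.71 to 3.17) over MHC and 2.03-fold (95% interval 1.89 to 2.18) over NEG, and it is not counted among the 42.

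**Figure D3:**
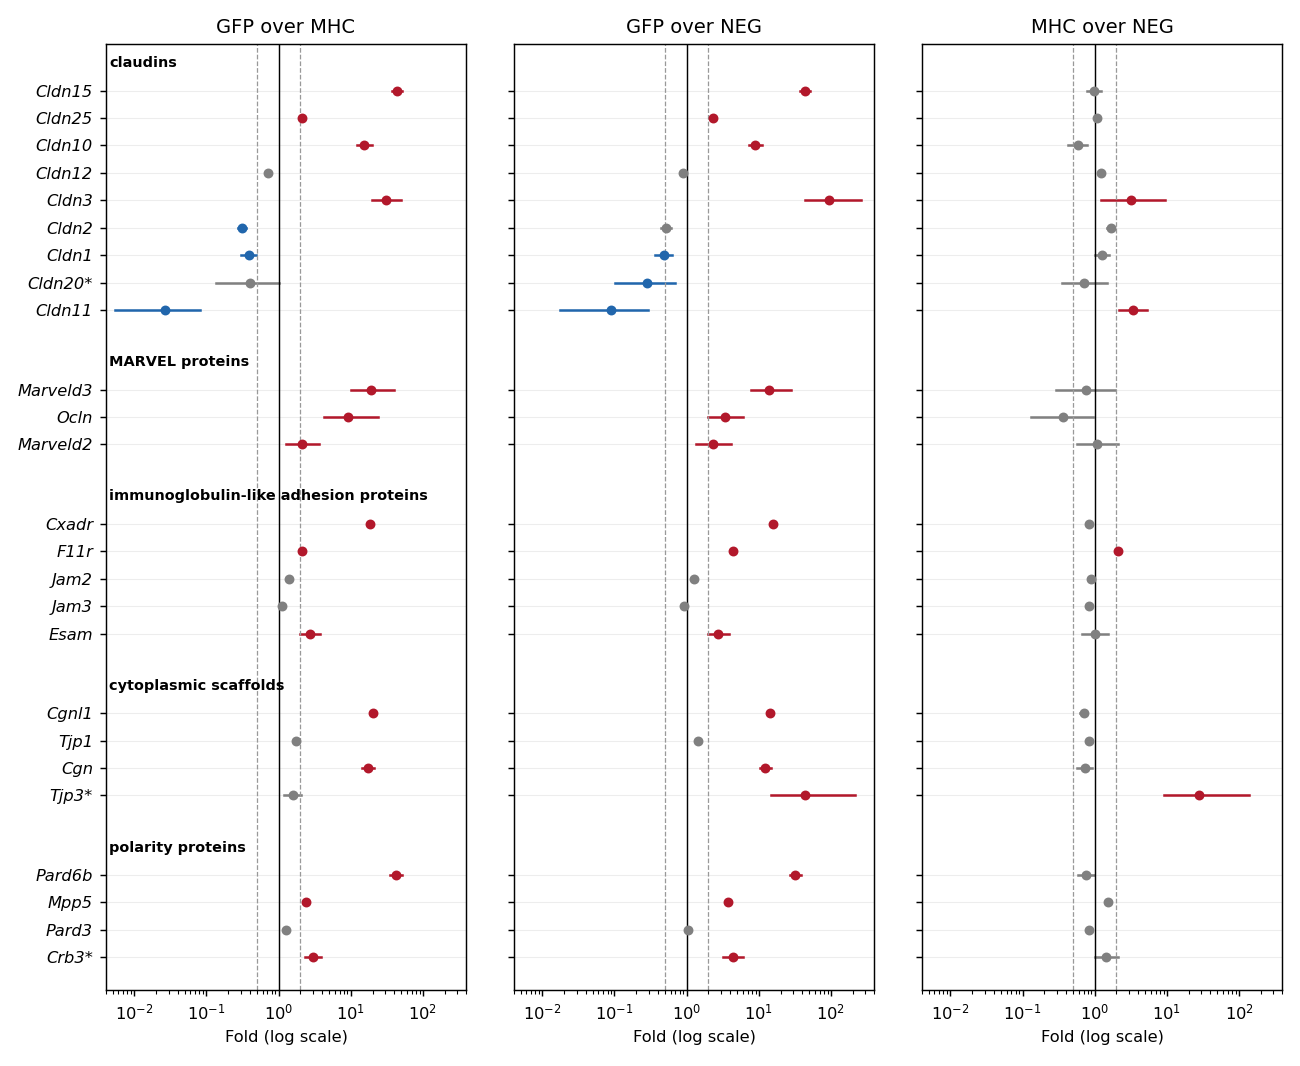
Folds of 25 tight junction genes (points, log axis) with exact 95% counting intervals (lines) for GFP over MHC, GFP over NEG and MHC over NEG, with red for called higher, blue for called lower and grey for within 2-fold or under a value of 20. Dashed lines stand at 2-fold. The red points reach 43.8 for Cldn15 and 42.1 for Pard6b over MHC, whereas most points of MHC over NEG lie between the dashed lines.

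Ranked by value per kb of exon, Cxadr led the members in GFP at 5110, followed by Cldn15 at 3403, Cldn25 at 2497, Cgnl1 at 1805, F11r at 1523 and Pard6b at 1467. In MHC the order began with Cldn25 at 1180, F11r at 729, Jam3 at 396 and Cldn12 at 375. In NEG it began with Cldn25 at 1082, Jam3 at 482, Tjp1 at 440 and F11r at 346. The top places in GFP thus differed from those in MHC and NEG, with Cldn25 and F11r among the leading genes of every library. Per kb of gene span the GFP order began with Cldn25 at 1009, Cldn15 at 782, Cxadr at 649 and Cldn3 at 510, so the first place depends on the length used.

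MHC and NEG lay within 2-fold of each other in most of the tight junction genes that could be compared, as they did in most of all genes. Of the 42 members, 4 were higher in MHC than in NEG, 1 was lower, 20 lay within 2-fold and 17 were under 20 in both. Of the 25 reaching 20 in either population, 16.0% were higher and 4.0% lower. Over all 20572 such genes, 5.35% were higher and 5.21% lower, and 18400 lay within 2-fold. The 4 higher members were Tjp3, which is uncertain, at 27.8-fold (95% interval 9.22 to 137), Cldn11 at 3.35-fold (95% interval 2.18 to 5.34), Cldn3 at 3.14-fold (95% interval 1.23 to 9.50) and F11r. Cldn7, the 1 lower member, had 14 reads in MHC and 27 in NEG. The calls of Cldn3 and Cldn7 between MHC and NEG were lost with a pseudocount of 10. The median log2 ratio of the 28 members was -0.09, where that of all genes was -0.01.

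**Figure D4:**
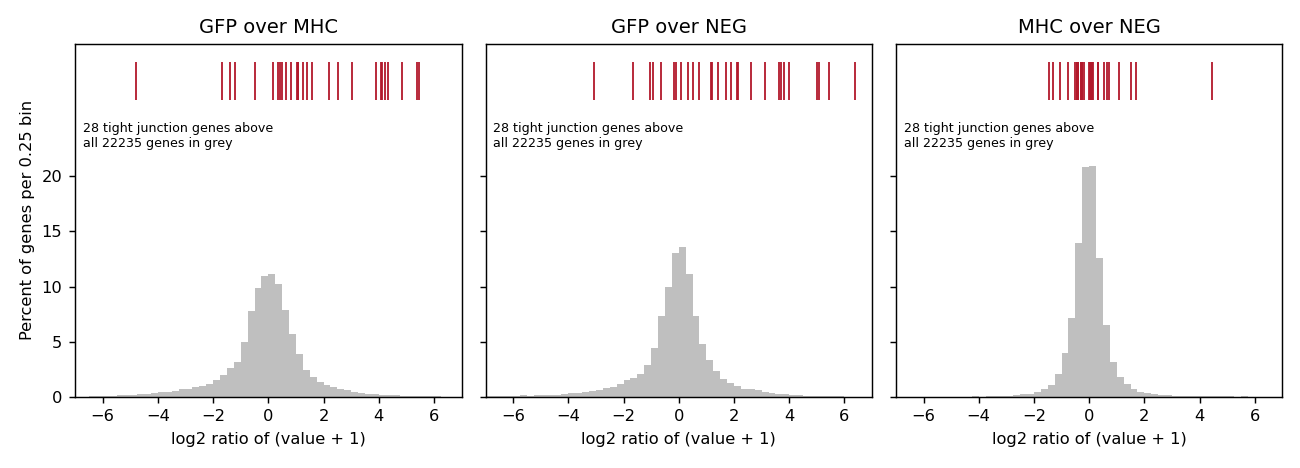
Distribution of log2 ratios of (value + 1) over the 22235 genes with a mean of 10 or more (grey, percent of genes per bin) for each pair of populations, with the 28 tight junction genes above that mean as red ticks. For GFP over MHC the ticks reach from -4.79 to 5.44 with a median of 1.17, and for MHC over NEG they lie around -0.09.

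Other genes of the polarity complexes and junction plaque made up a list of 28. Against MHC, 8 were higher in GFP and 2 lower, and against NEG 8 were higher and 3 lower, with a median log2 ratio of 0.34 over MHC and 0.51 over NEG. Of the 26 reaching 20 in each comparison, 30.8% were higher and 7.69% lower against MHC, and 30.8% and 11.5% against NEG. The shares over all genes were 15.6% and 16.4% against MHC, and 14.1% and 15.0% against NEG. Lsr and Magi3, counted as higher, overlap Gm4673 and Phtf1 and are uncertain. Igsf5, counted as lower, overlaps Pcp4 and is uncertain too. Among the differing genes with the highest means, the angiomotin-like gene Amotl2 measured 29358 in GFP, against 12766 in MHC and 10532 in NEG. Ildr2, of the angulin family that recruits tricellulin to cell corners, measured 8559 in GFP, against 1501 in MHC and 1073 in NEG, which is 5.70-fold (95% interval 5.40 to 6.03) over MHC. Arhgef18, a nucleotide exchange factor of the junction, measured 4306 in GFP, against 2090 in MHC and 2181 in NEG. Its difference from NEG lay within 2-fold. Arhgef2, the junction-bound exchange factor GEF-H1, went the other way, with 2216 in GFP, against 4097 in MHC and 7038 in NEG, which is 3.18-fold (95% interval 3.03 to 3.33) lower than in NEG.

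The kinase that pairs with Par6 and the other Crumbs gene were read for their link to Pard6b and Crb3, after their values were seen. The atypical protein kinase C gene Prkcz measured 1503 in GFP, against 169 in MHC and 336 in NEG, which is 8.88-fold (95% interval 7.57 to 10.5) over MHC, while Prkci measured 4323 in GFP, against 3374 in MHC and 2572 in NEG. The other Par6 genes did not share the level of Pard6b. Pard6g measured 396 in GFP, against 926 in MHC and 1582 in NEG, and Pard6a measured 467 in GFP, against 416 in MHC and 502 in NEG. Crb2 measured 2541 in GFP, against 131 in MHC and 250 in NEG, and it shares reads with Dennd1a and is uncertain.

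Adherens junction and desmosome genes, a list of 19, were not shifted in a common direction, but larger shares than over all genes differed both ways. Against MHC, 4 were higher in GFP and 5 lower, and against NEG 4 were higher and 4 lower. The median log2 ratios were -0.02 over MHC and 0.06 over NEG. Of the 18 genes reaching the minimum value against MHC, 22.2% were higher and 27.8% lower, where the shares over all genes were 15.6% and 16.4%. Of the 17 reaching it against NEG, 23.5% were higher and 23.5% lower, where the shares over all genes were 14.1% and 15.0%. Pvrl2, the gene of nectin-2, measured 9888 in GFP, against 1344 in MHC and 1524 in NEG, and shares reads with an overlapping gene model. Jup, plakoglobin, measured 5317 in GFP, against 2270 in MHC and 1623 in NEG. Dsp, desmoplakin, which is abundant in intercalated discs, was lower, with 651 in GFP, against 4583 in MHC and 1421 in NEG, which is 7.04-fold (95% interval 6.51 to 7.63) below MHC. Pkp2, a plakophilin, measured 2639 in GFP, against 1462 in MHC and 696 in NEG, where the difference from MHC lay within 2-fold. E-cadherin (Cdh1), the adherens cadherin of most epithelia, measured only 64.0 in GFP, against 19.2 in MHC and 7.91 in NEG.

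The repressors of epithelial junction genes were lower in GFP or within 2-fold. Snail and Zeb factors among them bind E-boxes of the letters marked in the promoter windows. Against MHC 4 of the 7 were lower and 0 higher, and against NEG 3 were lower and 0 higher. These are 57.1% and 42.9% lower, where 16.4% of all genes were lower than in MHC and 15.0% lower than in NEG. Snai1 measured 225 in GFP, against 3595 in MHC and 2093 in NEG, which is 16.0-fold (95% interval 14.0 to 18.3) below MHC and 9.31-fold (95% interval 8.15 to 10.7) below NEG. Snai2 measured 166 in GFP, against 862 in MHC and 825 in NEG, which is 5.18-fold (95% interval 4.41 to 6.11) below MHC. Zeb2 measured 1526 in GFP, against 3285 in MHC and 2673 in NEG, within 2-fold of NEG. Twist2 measured 21 in GFP, against 85.1 in MHC and 188 in NEG. Of the 9 activators, 5 had a value under 20 in both libraries against MHC, among them Grhl2 at 9.14 in GFP, against 12.2 in MHC and 9.04 in NEG. Grhl1 measured 62.2 in GFP, against 197 in MHC and 65.5 in NEG, and Grhl3 measured 38.4 in GFP, against 14.2 in MHC and 31.6 in NEG. Both lay within 2-fold between GFP and NEG. Ovol1 measured 55.8 in GFP, against 34.4 in MHC and 24.9 in NEG, within 2-fold of MHC. Whether any of these factors act on the members was not tested.

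Epithelial markers were high together with the tight junction genes. Against MHC 7 of the 10 were higher in GFP, 0 lower, 1 within 2-fold and 2 under 20, and the same counts held against NEG. Of the 8 reaching 20, 87.5% were higher in each comparison, where 15.6% of all genes were higher than in MHC and 14.1% higher than in NEG. Among the higher ones, Prss8 overlaps Kat8 and Esrp2 overlaps Nfatc3, so both are uncertain. The summed value of the 10 was 23103 in GFP, against 1621 in MHC and 2859 in NEG. Most of it came from the keratin Krt7 at 15730 in GFP, against 881 in MHC and 2044 in NEG. Some defining genes were low: Epcam measured 25.6 in GFP, against 15.2 in MHC and 14.7 in NEG, and the splicing factor Esrp1 measured 2.74 in GFP, against 0 in MHC and 1.13 in NEG. Of 4 smooth muscle markers all were lower in GFP (sum 3444 in GFP, against 53628 in MHC and 53453 in NEG), and of 6 fibroblast markers 2 were higher and 4 lower than in MHC (sum 1323108 in GFP, against 5142687 in MHC and 5214674 in NEG). Over all genes, 16.4% were lower than in MHC and 15.0% lower than in NEG. Among neuronal and glial markers only Mbp was higher in GFP than in MHC, with 11557 in GFP, against 1787 in MHC and 1676 in NEG, and Sox10 had 0 reads in MHC. Of the 5 endoderm and hepatic markers 2 were higher and 1 lower in GFP than in MHC, with a sum of 73.1 in GFP, against 70.9 in MHC and 180 in NEG.

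**Figure D5:**
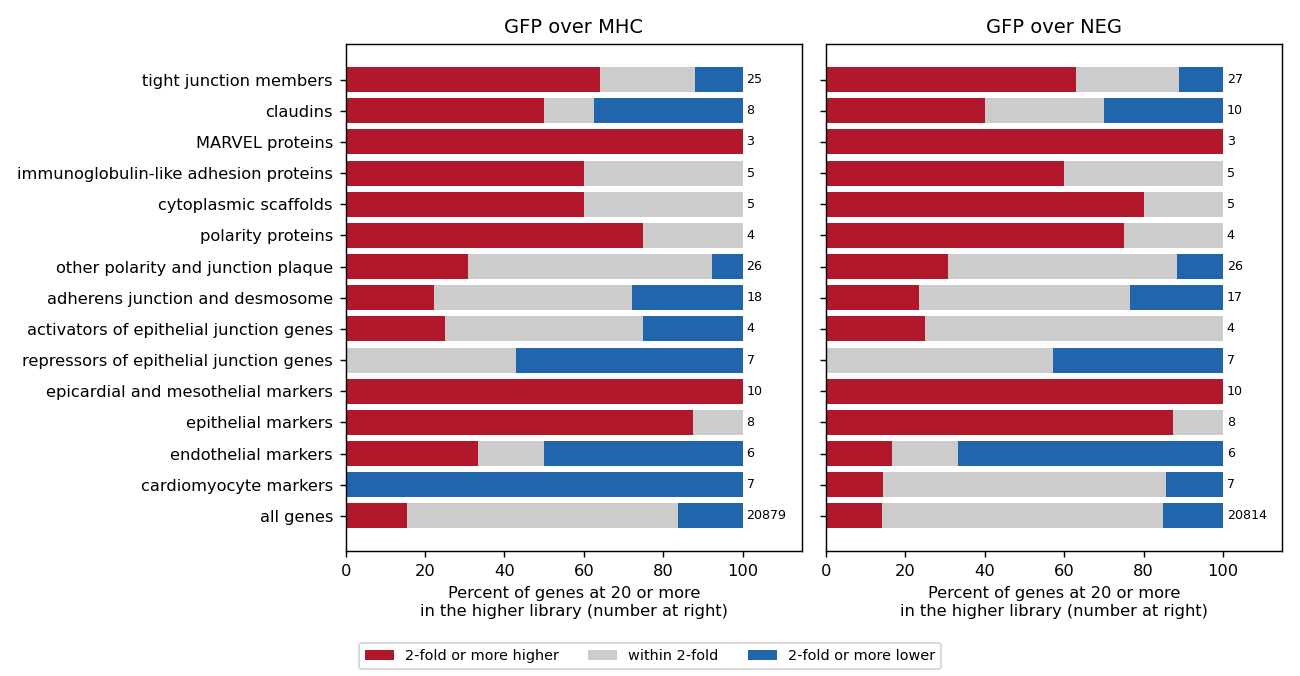
Percent of genes called higher (red), within 2-fold (grey) and called lower (blue) in GFP over MHC and in GFP over NEG, for tight junction genes, their roles, other gene lists and all genes, among genes reaching a value of 20 in either population (their number stands at the right of each bar). The tight junction bar is 64.0% red over MHC and 63.0% red over NEG, against 15.6% and 14.1% for all genes, while the repressor bars hold no red.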

How the data were processed

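RNA from the 3 sorted populations was made into TruSeq libraries and sequenced as 50-base single reads, per the labels' protocols. The submitters' processing notes name FastQC 0.11.2, STAR 2.3.0e, bedtools 2.17.0, DESeq2 1.2.10 and mm10, with no roles stated. The deposited values are a signal per gene: read counts divided by a size factor per library. Whole reads were recovered from them for 100% of values within 0.01, at 0.914 per read in GFP, 1.01 in MHC and 1.13 in NEG. In the 577 genes nested on the opposite strand of another gene, the host had as many reads or more in 100%, so overlapping genes share reads; members whose overlapping gene holds at least 25% of their reads are called uncertain. With 1 library per population no count model was fitted. Genes were named at a value of 100 or more in any library or a call of GFP against MHC or NEG, and list genes by mean. Exon lengths came from GENCODE M21, promoters from RefSeq. Members and lists were chosen with earlier results of these data known. Intervals cover counting error only, since reads carry no molecular identifiers. The values of 1 member, which enters the counts and medians, are not reported here.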

Additional observations from a re-analysis of the deposited data

How the results depend on the processing

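With a pseudocount of 10, 72 of 78 single-gene values stayed within their counting interval, and with library totals in place of size factors 56 of 78 did; this scaling moved the median of all genes by 0.17 on the log2 scale for GFP over MHC and GFP over NEG and by -0.00 for MHC over NEG. Of 51 counts and medians, 37 stayed and 14 moved. Only a median could be labelled as reversed, and none was. A count stayed if it was within 1.5 times its main value. A median stayed if it lay between the median lower and the median upper counting bound of the single members. At a fold of 3, 10 members were higher in GFP than in MHC, 2 higher in MHC than in NEG and 0 lower in MHC than in NEG. With no minimum value, 8 were lower in GFP than in MHC, 7 lower in GFP than in NEG, 7 higher in MHC than in NEG and 7 lower in MHC than in NEG. With a minimum of 100, 1 was lower in GFP than in NEG, 2 were higher in MHC than in NEG and 0 lower. With a pseudocount of 10, 1 was lower in GFP than in NEG, since Cldn1 and Cldn20 no longer passed, and 0 lower in MHC than in NEG; Marveld2 in both GFP comparisons and Cldn3 in MHC over NEG were lost too. With library totals, Cldn1 against NEG was the one member call lost, leaving 2 lower, and none was gained. The median log2 ratio of GFP over NEG was 0.94 with no minimum mean and 2.11 at a mean of 100 or more. The cause of these changes was not tested beyond the number of genes each setting admits. No paired analysis was possible because each population has 1 library, and none could be left out. Genes of a few reads, such as Cldn11 in GFP and Tjp3 in NEG, have the widest intervals. The order of levels by length was added after seeing the data.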
